A study of Homo sapiens with 7 samples.

Results

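The 10 genes EID2B, THAP2, C6orf52, SGK1, ANKRA2, DORIP1, LRATD2, ZNF425, FICD and ARRDC3 stood among the strongest late risers after camptothecin and were grouped for standing outside the pathways usually followed after this drug. They were chosen on the difference between 15 to 20 h of camptothecin and the solvent, so that difference is given here as a description without a test. Their probe sets were those named by the NCBI Gene ID of each gene, 513 of the 2108940 probe sets on the array. All 10 genes were among the 16148 genes with a gene value. RNA came from HCT116, an established human colon carcinoma cell line with no transgene or knockout named in the labels, and was read on the ExonHit Human Splice Array, which covers each gene with many probe sets. Camptothecin (CPT) at 10 µM, which locks topoisomerase I onto DNA, was given for 15 and 20 h (CPT late, n = 2) or for 1, 2 and 4 h (CPT early, n = 3). Control cells received the solvent alone, 0.1% DMSO, for 4 and 20 h (DMSO, n = 2). Each time had 1 array, so a standard deviation (SD) holds differences of time and of technique together.

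The genes come from several unrelated corners of cell biology. Some act in the nucleus: EID2B belongs to a small family that inhibits the coactivator EP300 and differentiation, THAP2 carries a THAP zinc finger that binds DNA, and ZNF425 is a zinc finger gene of the kind that represses transcription. SGK1 is a serum- and glucocorticoid-induced kinase that phosphorylates the ubiquitin ligase NEDD4L, and ARRDC3 is an alpha-arrestin, an adaptor that brings such ligases to membrane proteins. ANKRA2 is an ankyrin repeat adaptor that binds megalin and class II histone deacetylases. FICD is an enzyme of the endoplasmic reticulum (ER) that attaches AMP to the chaperone BiP and removes it. LRATD2 holds an LRAT domain, and the roles of C6orf52 and DORIP1 are not described here.

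Promoter windows from RefSeq, reaching from 250 bases before to 50 bases after a gene start on GRCh38.p14, were found for 9 of the 10 genes, in 13 windows. Those of 3 genes are shown: that of FICD for a motif that few windows hold, that of SGK1 for its TATA motif and that of ANKRA2 because it overlaps the window of another gene. Capitals mark matches on either strand to the TATA box, spelled TATAAA, to the widespread promoter element CCAAT or, in FICD, to the longer ER stress response element, which opens with that element and ends in CCACG. Matches to the GC box (GGGCGG) are not capitalised.
FICD (chr12:108515027-108515326, plus strand): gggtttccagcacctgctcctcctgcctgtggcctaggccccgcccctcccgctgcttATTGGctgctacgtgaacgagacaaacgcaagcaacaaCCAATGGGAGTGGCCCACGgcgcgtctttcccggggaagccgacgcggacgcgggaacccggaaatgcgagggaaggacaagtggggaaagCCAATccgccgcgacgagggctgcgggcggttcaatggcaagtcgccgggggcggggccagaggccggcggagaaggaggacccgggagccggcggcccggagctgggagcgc
SGK1 (chr6:134174817-134175116, minus strand): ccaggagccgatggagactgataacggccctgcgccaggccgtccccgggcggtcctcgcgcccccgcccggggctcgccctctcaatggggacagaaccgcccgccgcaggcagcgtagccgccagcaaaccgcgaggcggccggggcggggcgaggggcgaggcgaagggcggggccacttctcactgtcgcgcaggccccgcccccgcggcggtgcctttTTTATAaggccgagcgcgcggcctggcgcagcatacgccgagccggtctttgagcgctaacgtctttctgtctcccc
ANKRA2 (chr5:73565590-73565889, minus strand): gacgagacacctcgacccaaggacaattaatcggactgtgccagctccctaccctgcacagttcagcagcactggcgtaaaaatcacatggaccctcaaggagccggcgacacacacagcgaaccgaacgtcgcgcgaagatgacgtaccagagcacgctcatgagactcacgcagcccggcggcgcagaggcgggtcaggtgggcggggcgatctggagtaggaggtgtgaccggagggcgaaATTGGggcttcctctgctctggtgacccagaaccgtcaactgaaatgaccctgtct

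The ER stress response element in FICD begins 154 bases before the gene start and was present in 20 of the 18528 windows of tested genes (0.108%). The TATA motif of the SGK1 window shown lies 27 bases before the start, with TATAAA spelled on the strand opposite to the gene. All 3 SGK1 windows and the THAP2 window held a TATA motif, 4 of 13 windows but 2 of 9 genes, against 8.26% of windows of tested genes. A share by gene over all tested genes was not computed. In the SGK1 windows not shown the motif lay 15 and 96 bases before the start, and in THAP2 181 bases. The match at 15 bases is on the strand of the gene, and those at 96 and 181 bases are on the opposite strand. A CCAAT box was present in 5 of 13 windows, 1 each of ANKRA2, ARRDC3, DORIP1, EID2B and FICD, which is near the 34.6% of all windows. The GC box was present in 9 of 13 windows, against 59.0% of all windows. Single genes held the E-box CACGTG (C6orf52, 8.56% of windows), the FOXO site GTAAACA (ARRDC3, 2.80%) and the heat shock element GAANNTTC (DORIP1, 5.41%). The cyclic AMP response element TGACGTCA (2.39%), the AP-1 site TGANTCA (5.97%), the glucocorticoid response element (0.297%) and the short p53 motif (6.15%) were found in 0 of the 13 windows.

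Array medians over all probe sets lay between 2.87 and 2.96, while the median gene stood 0.34 higher in CPT late than in DMSO and 0.03 higher in CPT early. Correlations were between 0.845 and 0.908 for the late arrays against the other arrays, and between 0.942 and 0.956 among the DMSO and CPT early arrays. Of 10 epithelial markers, the type of this line, 3 were higher and 1 lower in CPT late, with a summed log2 level of 55.3 to 57.4 in CPT late and 54.8 to 55.0 in DMSO. Markers of cells that the line should lack were also higher on these arrays with limma: 8 of 10 endothelial, 4 of 9 leukocyte and 4 of 10 fibroblast markers, and 0 lower, against 33.4% of all genes higher and 18.0% lower. With each array centred, a setting tried on lists and neighbours after seeing the data, 2 endothelial, 3 leukocyte and 2 fibroblast markers were higher, against 12.9% of all genes higher and 21.2% lower. Their summed levels were 42.8 to 44.4 in CPT late and 37.2 to 38.5 in DMSO for endothelial, 39.8 to 40.2 and 33.8 to 34.8 for leukocyte, and 41.1 to 43.3 and 37.0 to 39.0 for fibroblast markers. The means of single endothelial, leukocyte and fibroblast markers over the 7 arrays lay between 3.10 and 4.81, and none was at 0. The part of this shift in the levels of the 10 genes was not tested. The median differences of the endothelial, leukocyte and fibroblast lists were 0.52, 0.57 and 0.51. CDKN1A, the cell cycle inhibitor p21, averaged 7.20 ± 0.17 in CPT late and 5.47 ± 0.28 in DMSO (SD, n = 2 each). TOP1, the gene of the drug target, averaged 7.20 ± 0.38 in CPT late and 7.84 ± 0.08 in DMSO. In bulk RNA of this kind, fewer cells of a type and less RNA per cell cannot be told apart.

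Each gene was given the median log2 value of those probe sets whose mean over the 7 arrays exceeded 2.95, the median of all probe set means. Kept in this way were 270 of the 513 probe sets, and 243 were dim. A probe set can pass that mean through its late arrays alone: 93 of the 270 kept probe sets had a DMSO mean under it. In CPT late all 10 genes lay more than 1 above DMSO on the log2 scale, or 5 with no cut on dim probe sets. This is the contrast that chose them, and 6.01% of all genes lay more than 1 above DMSO with the cut. The differences ran from 2.15 for FICD to 4.19 for EID2B, and from 1.81 to 3.85 once the shift of the median gene was taken off. EID2B ranked 1 among all genes, THAP2 3, C6orf52 4, SGK1 7, ANKRA2 8, DORIP1 9, LRATD2 16, ZNF425 18, ARRDC3 42 and FICD 49. The differences of the 5 genes from THAP2 to DORIP1 in this order spanned 3.04 to 3.28, which is less than the SD of any of them in CPT late.

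The time of first rise was taken as the first CPT array more than 1 above the higher DMSO array, with every later CPT array above it by more than 1 as well. By this measure EID2B rose at 1 h, THAP2 at 2 h, C6orf52, SGK1 and ANKRA2 at 4 h, and the remaining DORIP1, LRATD2, ZNF425, FICD and ARRDC3 at 15 h. Rises by 4 h were found in 39 of all genes (0.242%), and 5 of these were among the 10. A first rise needs both late arrays above DMSO, which the choice of the genes favours, and among the 770 genes with a first rise 5.06% rose by 4 h. A first rise fell at 1 h for 0.00619% of all genes, at 2 h for 0.0557%, at 4 h for 0.18% and at 15 h for 1.96%, or 4.77% at any time. All later values lay above the threshold by definition, and both late arrays lay above both DMSO arrays for 10 of 10 genes and for 54.2% of all genes.

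**Figure D1:**
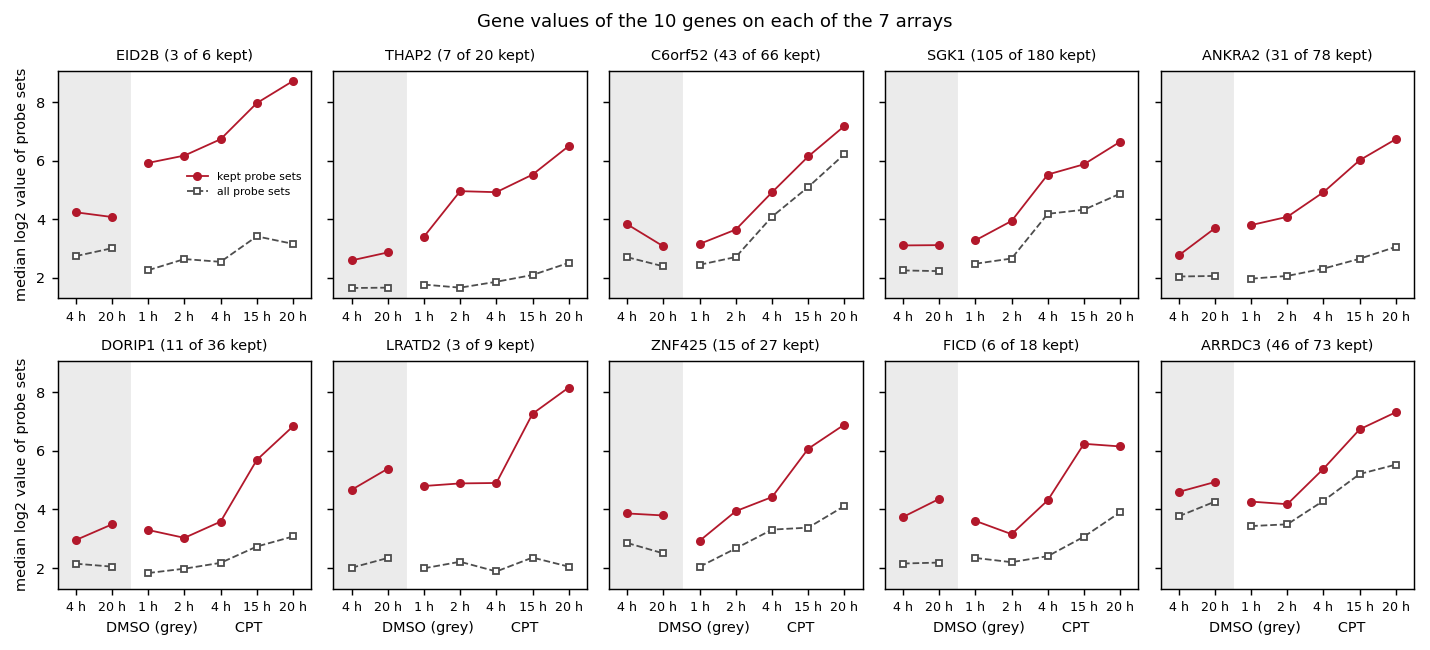
Median log2 value of the kept probe sets (filled red circles) and of all probe sets (open squares) of each gene on the 7 arrays, with the DMSO arrays on grey and the CPT arrays in order of time. EID2B already stood at 5.92 on the 1 h array, LRATD2 was level with DMSO until 4 h, and the line of all probe sets stayed low for EID2B, THAP2 and LRATD2.

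Among the nuclear genes, EID2B was the earliest. Its gene value was 4.24 and 4.08 in DMSO at 4 and 20 h, and 5.92, 6.17, 6.73, 7.96 and 8.72 after 1, 2, 4, 15 and 20 h of CPT. Every CPT array was above both DMSO arrays and each was above the one before it. EID2B averaged 8.34 ± 0.53 in CPT late and 4.16 ± 0.11 in DMSO (SD, n = 2 each), 18.2-fold higher. It was the only 1 of 16148 genes with a first rise at 1 h. Of its 3 kept probe sets 1 had that rise, and the gene value equals that one. The remaining 2 had no first rise at any time.

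THAP2 read 2.59 and 2.87 in DMSO at 4 and 20 h, and 3.40, 4.96, 4.92, 5.52 and 6.50 after 1, 2, 4, 15 and 20 h of CPT. The 2 h and 4 h arrays were level with each other and well above both DMSO arrays. THAP2 averaged 6.01 ± 0.69 in CPT late and 2.73 ± 0.19 in DMSO, 9.71-fold higher. That fold holds for its 7 kept probe sets, of which 5 had a DMSO mean under the limit. With no cut on dim probe sets its log2 difference was 0.65.

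ZNF425 was low on the 1 h array and climbed from there. It read 3.86 and 3.79 in DMSO at 4 and 20 h, and 2.93, 3.94, 4.42, 6.07 and 6.90 after 1, 2, 4, 15 and 20 h of CPT. The 1 h array was the lowest of the 7 and the late arrays were the highest. ZNF425 averaged 6.49 ± 0.58 in CPT late and 3.83 ± 0.05 in DMSO, 6.31-fold higher.

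Of the signalling genes, SGK1 moved most between 2 and 4 h. Its gene value was 3.11 and 3.12 in DMSO at 4 and 20 h, and 3.28, 3.94, 5.53, 5.88 and 6.64 after 1, 2, 4, 15 and 20 h of CPT. The DMSO arrays almost coincided, the 1 h array lay just above them, and the 4 h array was closer to the late arrays than to DMSO. SGK1 averaged 6.26 ± 0.54 in CPT late and 3.11 ± 0.01 in DMSO, 8.87-fold higher.

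ARRDC3 dipped before it rose. It read 4.60 and 4.94 in DMSO at 4 and 20 h, and 4.27, 4.18, 5.39, 6.73 and 7.32 after 1, 2, 4, 15 and 20 h of CPT. The 1 h and 2 h arrays were below both DMSO arrays and the 4 h array was above both. ARRDC3 averaged 7.03 ± 0.41 in CPT late and 4.77 ± 0.24 in DMSO, 4.79-fold higher.

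ANKRA2, the ankyrin repeat adaptor, read 2.76 and 3.69 in DMSO at 4 and 20 h, and 3.80, 4.08, 4.92, 6.02 and 6.73 after 1, 2, 4, 15 and 20 h of CPT. Its DMSO arrays were 0.93 apart, the widest gap of the 10 genes, and the 1 h array was just above the higher of them. ANKRA2 averaged 6.37 ± 0.51 in CPT late and 3.23 ± 0.66 in DMSO, 8.86-fold higher.

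FICD, the BiP-modifying enzyme, read 3.74 and 4.36 in DMSO at 4 and 20 h, and 3.61, 3.16, 4.31, 6.24 and 6.15 after 1, 2, 4, 15 and 20 h of CPT. The early arrays overlapped DMSO or lay below it, and both late arrays lay above. FICD was the only one of the 10 genes whose 20 h CPT array was not above its 15 h array. The other 9 were higher at 20 h than at 15 h, as were 45.1% of all genes and 84.4% of the 770 genes with a first rise. FICD averaged 6.20 ± 0.06 in CPT late and 4.05 ± 0.44 in DMSO, 4.42-fold higher.

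LRATD2, the LRAT domain gene, read 4.67 and 5.39 in DMSO at 4 and 20 h, and 4.80, 4.89, 4.90, 7.27 and 8.16 after 1, 2, 4, 15 and 20 h of CPT. The 3 early arrays were close to one another, between the DMSO arrays, and both late arrays stood clear of them. LRATD2 averaged 7.71 ± 0.63 in CPT late and 5.03 ± 0.51 in DMSO, 6.43-fold higher.

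DORIP1 behaved much like it. It read 2.95 and 3.49 in DMSO at 4 and 20 h, and 3.30, 3.03, 3.58, 5.69 and 6.84 after 1, 2, 4, 15 and 20 h of CPT. The 1 h and 2 h arrays lay between the DMSO arrays and the 4 h array just above them. DORIP1 averaged 6.26 ± 0.81 in CPT late and 3.22 ± 0.38 in DMSO, 8.23-fold higher.

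C6orf52 read 3.83 and 3.07 in DMSO at 4 and 20 h, and 3.16, 3.65, 4.92, 6.14 and 7.18 after 1, 2, 4, 15 and 20 h of CPT. The 1 h and 2 h arrays lay between the DMSO arrays and the later arrays climbed step by step. C6orf52 averaged 6.66 ± 0.74 in CPT late and 3.45 ± 0.53 in DMSO, 9.28-fold higher.

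Matching CPT and DMSO by time put the same 5 genes ahead at 4 h, on the same 4 h CPT array and the same kept probe sets as the first rise. At 4 h the CPT array was above the DMSO array by 2.49 for EID2B, 2.42 for SGK1, 2.33 for THAP2, 2.16 for ANKRA2 and 1.09 for C6orf52. These 5 of 10 genes passed a difference of 1, which 1.39% of all genes did. The remaining 5 differed by 0.23 (LRATD2) to 0.79 (ARRDC3) at 4 h. At 20 h the difference was 1.79 for FICD, 4.11 for C6orf52 and 4.64 for EID2B, with the other genes between 2.38 and 3.63, and a difference above 1 was shared by 6.53% of all genes. The difference at 4 h was 71.0% of that at 20 h for ANKRA2 and 8.45% for LRATD2. Each difference uses its own DMSO array, and these were 0.93 apart for ANKRA2 and 0.72 for LRATD2, so the percentages carry that gap. These pairs have 1 array on each side and no test. Between the DMSO arrays themselves 4 of the 10 genes were more than 0.5 higher at 20 h than at 4 h, ANKRA2, LRATD2, FICD and DORIP1, against 10.5% of all genes. With no cut on dim probe sets, the CPT and DMSO arrays of 4 h read 2.55 and 2.74 for EID2B and 1.87 and 1.65 for THAP2. They read 2.31 and 2.04 for ANKRA2, 4.18 and 2.25 for SGK1, and 4.09 and 2.70 for C6orf52.

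The first 4 h were tested with limma over all genes. CPT early against DMSO shares its DMSO arrays with the contrast that chose the genes, so it is not independent of that choice. The CPT arrays also helped to keep probe sets whose DMSO mean was under the limit. EID2B passed in CPT early, on a gene value that equals 1 B probe set, while its other 2 kept probe sets were lower there by their means (−0.32 and −0.34). It averaged 6.28 ± 0.41 (SD, n = 3) against 4.16 ± 0.11 in DMSO, a log2 difference of 2.12 (SE 0.29, limma adjusted p = 0.0278), higher on 3 of 3 arrays. It was 1 of the 4 genes (0.0248%) that passed as higher, and 0.0681% passed as lower. That call was lost with the mean of the kept probe sets in place of the median (0.49, adjusted p = 0.438) and after centring the arrays (adjusted p = 0.0687). Leaving out a DMSO array lost it as well (adjusted p = 0.30 for the 4 h and 0.392 for the 20 h array), as did leaving out the CPT array of 2 h (0.0869) or of 4 h (0.0702), while the difference stayed between 1.89 and 2.20 in these 4 settings. With no cut on dim probe sets EID2B read −0.39 (adjusted p = 0.681).

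The other 9 genes did not pass in CPT early. THAP2 had a difference of 1.70 (SE 0.43, adjusted p = 0.391), SGK1 of 1.14 (SE 0.51, 0.699) and ANKRA2 of 1.04 (SE 0.36, 0.604). Without the 1 h array THAP2 passed, with a difference of 2.21 (adjusted p = 0.0132). Of its 7 kept probe sets 5 had a DMSO mean under the limit and were kept through CPT arrays. Nothing is therefore read from that call. With the cut on dim probe sets, a difference above 1 was reached by 4 of the 10 genes and by 0.18% of all genes. C6orf52 (0.46) and DORIP1 (0.08) were nearer 0, and ZNF425 (−0.06), ARRDC3 (−0.15), LRATD2 (−0.17) and FICD (−0.36) were below it. For these 6 genes adjusted p-values lay between 0.874 and 0.991. All 3 early arrays lay above both DMSO arrays for 4 of the 10 genes, EID2B, THAP2, SGK1 and ANKRA2, and for 12.8% of all genes. These counts rest on kept probe sets. With no cut on dim probe sets the CPT early difference was 0.11 for THAP2, 0.87 for SGK1, 0.06 for ANKRA2 and −0.39 for EID2B.

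The estimate of the slope over 1, 2 and 4 h comes from the CPT early arrays alone, which are no part of the contrast that chose the genes. Its SE and p-value also draw on the spread within DMSO and within CPT late. The late arrays also helped to keep probe sets, so the slope is not fully independent of that choice. SGK1 gained 1.12 per doubling of the hours (SE 0.19, limma adjusted p = 0.361, unadjusted 0.000157), the slope of rank 4 among all genes. C6orf52 gained 0.88 (SE 0.25, adjusted p = 0.854), THAP2 0.76 (SE 0.25, 0.886) and ZNF425 0.75 (SE 0.19, 0.755). None passed, and 0 of 16148 genes did with limma, while 741 genes had an unadjusted p under 0.05. Slopes were above 0 for 10 of the 10 genes and for 55.0% of all genes. An unadjusted p under 0.05 with a slope above 0 was seen for 6 of the 10, SGK1, C6orf52, THAP2, ZNF425, ANKRA2 and ARRDC3, and for 2.29% of all genes. With the mean of the kept probe sets ZNF425 passed (0.80, adjusted p = 0.0187), the only setting in which one of the 10 genes did.

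**Figure D2:**
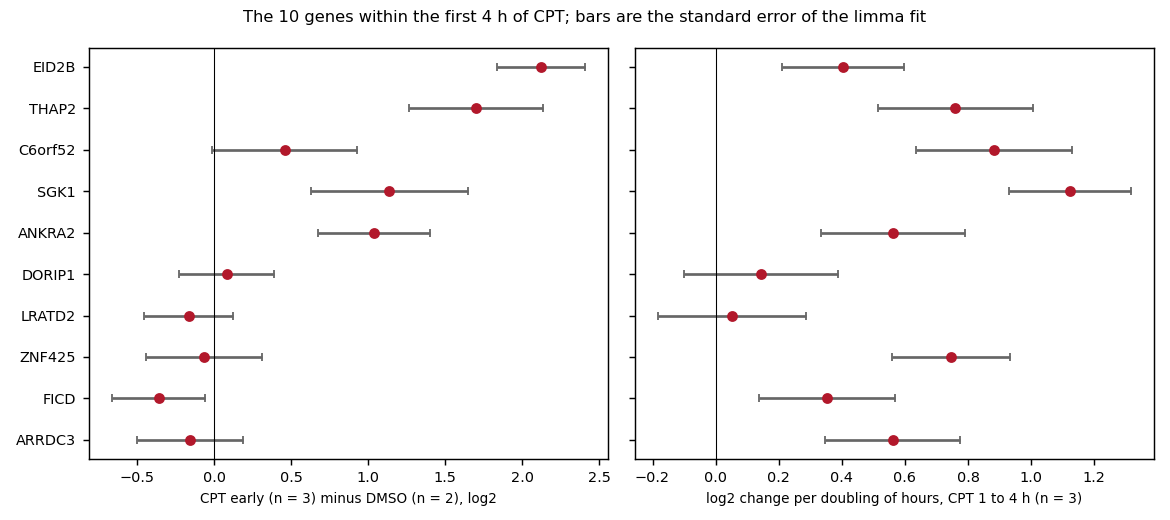
CPT early minus DMSO (left) and the log2 change per doubling of hours between 1 and 4 h of CPT (right) for each gene, with points at the limma estimate and bars of 1 standard error. EID2B, at 2.12, is the one gene past the threshold on the left, SGK1 has the steepest slope, 1.12, on the right, and no slope passed.

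Probe sets of one gene read the same RNA and are not replicates, but they show how far a gene value stands for the whole gene. In CPT late 426 of all 513 probe sets were higher than DMSO by their means, against 55.9% of the probe sets of all genes, and 279 (54.4%) were more than 1 higher, against 9.58% of the probe sets of all genes. Of the kept probe sets 235 of 270 (87.0%) were more than 1 higher, against 15.5% of all kept probe sets, and of the dim ones 44 of 243 (18.1%), against 3.63% of all dim probe sets. Since the genes were chosen on this contrast, nothing is read from these shares. The median of all probe sets, with no cut, differed by more than 1 in 5 of the 10 genes: C6orf52 (3.11), SGK1 (2.36), ARRDC3 (1.35), FICD (1.32) and ZNF425 (1.07). It differed by 0.03 for LRATD2, 0.41 for EID2B, 0.65 for THAP2, 0.80 for ANKRA2 and 0.81 for DORIP1, and these 5 genes then had no time of first rise. Without the cut C6orf52 and SGK1 still rose at 4 h, and ZNF425, FICD and ARRDC3 at 20 h.

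**Figure D3:**
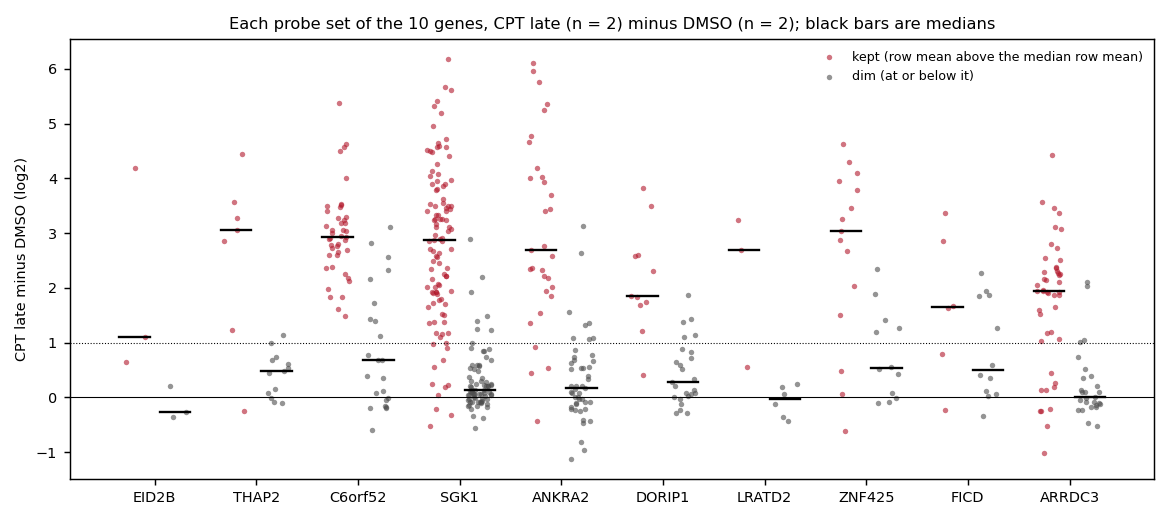
CPT late minus DMSO on the log2 scale for each of the 513 probe sets, kept ones in red and dim ones in grey, with a black bar at each median, a solid line at 0 and a dotted line at 1. The kept probe sets of C6orf52 all lie above 1, 12 kept probe sets of other genes lie below 0, and most dim probe sets cluster near 0.

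Over all probe sets, kept and dim, C6orf52 had 52 of 66 more than 1 higher in CPT late, ZNF425 17 of 27, SGK1 100 of 180, ARRDC3 40 of 73 and FICD 9 of 18. ANKRA2 had 35 of 78, DORIP1 15 of 36, THAP2 7 of 20, EID2B 2 of 6 and LRATD2 2 of 9. Among kept ones, which the late values helped to keep, the count was 43 of 43 in C6orf52, between 1.49 and 5.38, although 17 of these had a DMSO mean under the limit. SGK1 had 93 of 105 (51 under the limit in DMSO), DORIP1 10 of 11 (4 under it) and ANKRA2 27 of 31 (11 under it). THAP2 had 6 of 7 (5 under it), ZNF425 12 of 15 (3 under it) and ARRDC3 36 of 46 (2 under it). FICD had 4 of 6, and EID2B and LRATD2 had 2 of 3 each. Of the kept probe sets 12 were lower in CPT late than in DMSO by their means, 5 of them in ARRDC3 and 3 in SGK1. The lowest was a B probe set of ARRDC3, which read 3.04 and 3.11 in CPT late and 3.98 and 4.20 in DMSO. The highest was a C probe set of SGK1, which read 8.0 and 8.49 in CPT late and 2.50 and 1.65 in DMSO.

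The value of EID2B rests on a single probe set. Its B probe set lay between the other 2 kept ones on all 7 arrays and so is the gene value given above. The F probe set read 3.37 and 3.49 in DMSO, and 2.76, 3.50, 3.06, 4.94 and 4.12 after 1, 2, 4, 15 and 20 h of CPT. The T probe set read 8.39 and 8.31 in DMSO, and 7.90, 7.83, 8.29, 8.92 and 9.07 after CPT. Both were higher in CPT late by their means, by 1.10 and 0.65, and lower in CPT early, by 0.32 and 0.34, so the rise at 1 h was seen in 1 of 3 kept probe sets. The 3 dim probe sets of EID2B differed by −0.36 to 0.21 in CPT late.

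LRATD2 also had 3 kept probe sets. Its T probe set read 5.99 and 5.93 in DMSO, and 6.29, 6.30, 6.80, 8.80 and 9.58 after 1, 2, 4, 15 and 20 h of CPT. Its F probe set read 3.88 and 5.36 in DMSO and 5.18 and 5.16 after 15 and 20 h of CPT, so the groups overlapped there. The B probe set carried the gene value on most arrays, and the 6 dim probe sets differed by −0.43 to 0.25.

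FICD and THAP2 each had 1 kept probe set that was lower in CPT late by its means. In FICD a B probe set read 2.82 and 2.97 in CPT late and 2.65 and 3.60 in DMSO, whereas a T probe set read 6.50 and 7.40 in CPT late and 3.03 and 4.15 in DMSO. In THAP2 a Y probe set was high throughout, at 6.12 and 7.52 in CPT late and 7.24 and 6.90 in DMSO. The B probe set of THAP2 read 6.47 and 7.24 in CPT late and 1.94 and 2.87 in DMSO, the widest difference of that gene (4.45).

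Kept probe sets varied in their own time of first rise. Over the 10 genes 9 rose at 1 h, 30 at 2 h, 78 at 4 h, 77 at 15 h and 37 at 20 h, and 39 had no rise. Shares by time over the kept probe sets of all genes were not computed. Late values helped to choose the genes and to keep these probe sets, so the counts are a description only. In SGK1 70 of 105 had risen by 4 h, and 50 of these rose at 4 h itself. In C6orf52 18 of 43 had risen by 4 h and 24 rose later, so its gene value sits between an earlier and a later set. In ARRDC3 28 of 46 rose at 15 h and 3 by 4 h, and in DORIP1 7 of 11 rose at 15 h and 1 by 4 h. FICD and LRATD2 had 0 probe sets that rose by 4 h among the kept ones.

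**Figure D4:**
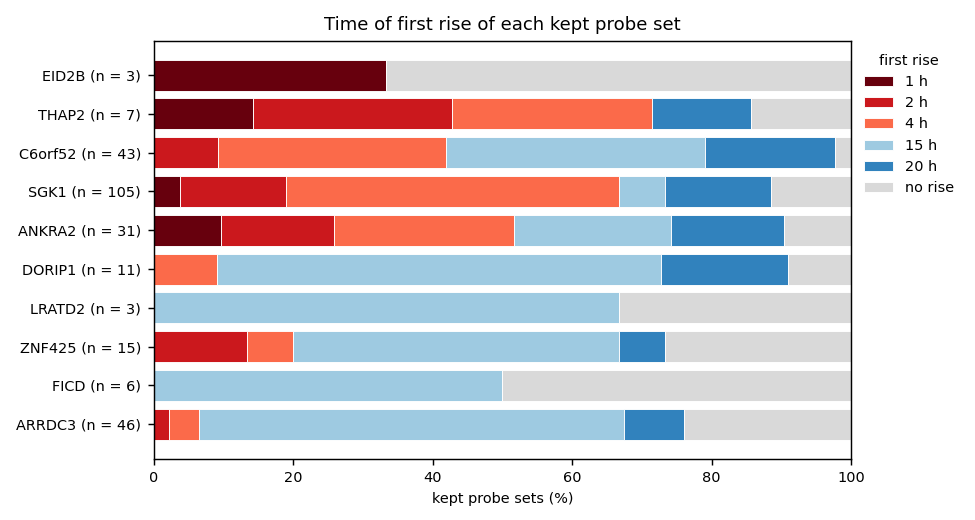
Percent of the kept probe sets of each gene by time of first rise, with the number of kept probe sets in brackets. Rises at 1, 2 and 4 h (reds) fill most of SGK1, 70 of 105, whereas rises at 15 h (light blue) are the largest class of rises in C6orf52, DORIP1, LRATD2, ZNF425, FICD and ARRDC3.

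The share of rising probe sets differed by the letter in their name, and what the letters stand for is not given in the sources used here. Of all T probe sets of the 10 genes 95.7% were more than 1 higher in CPT late, of F 89.1% and of B 68.1%. The shares were 53.7% for X, 49.1% for C, 40.9% for D, 26.9% for E, 26.8% for Z and 17.1% for Y. Most probe sets of the C, D, E, X, Y and Z kinds were dim. Among kept probe sets the shares were 97.1% for T, 95.8% for D, 90.9% for C, 90.2% for F and 88.2% for X. They were lower for B (44 of 55), Z (6 of 8), E (11 of 16) and Y (4 of 9). Shares by letter over the probe sets of all genes were not computed. Late values helped to choose the genes and to keep probe sets, so the shares by letter are a description only. Close to the limit for kept probe sets, an SGK1 B probe set just inside it (mean 2.97) differed by 0.04 and an SGK1 D probe set just outside it (mean 2.95) by 1.93.

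For each of the 10 the nearest tested protein-coding gene on the chromosome was taken, which lies far off for LRATD2, SGK1 and ARRDC3, a choice outside the rule for named genes and made after values were seen. Of these 10 neighbours 3 were higher and 3 lower in CPT late with limma, against 33.4% of all genes higher and 18.0% lower. With centred arrays 0 were higher and 3 lower, against 12.9% and 21.2% of all genes. UTP15, which serves ribosome assembly and whose promoter window shares 203 bases with that of ANKRA2 on the opposite strand, fell to 3.63 and 4.22 in CPT late, against 6.64 and 5.51 in DMSO (log2 difference −2.15, SE 0.34, adjusted p = 0.00101). SART3, a spliceosome recycling factor gene beside FICD, fell to 5.35 and 5.94 in CPT late, against 7.69 and 7.42 in DMSO (−1.91, SE 0.25, adjusted p = 0.000293). In both pairs the late arrays of the neighbour lay below both its DMSO arrays while those of its partner lay above.

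ZNF398, which shares 183 bases of promoter window with ZNF425, was higher, at 5.11 and 5.31 in CPT late and 4.42 and 4.60 in DMSO (0.70, SE 0.18, adjusted p = 0.0113). That is a smaller difference than the 2.66 of ZNF425. PAK1IP1, which overlaps C6orf52 and shares 145 bases of window with it, read 4.56 and 4.82 in CPT late and 5.97 and 4.84 in DMSO (−0.72, adjusted p = 0.0764). TRIB1, the nearest to LRATD2, fell by 0.79 (adjusted p = 0.0141). SLC2A12, the nearest to SGK1 (0.58, adjusted p = 0.0377), and KLHL28, the nearest to DORIP1 (0.51, adjusted p = 0.0403), were higher. With centred arrays ZNF398 (0.46, adjusted p = 0.0614), SLC2A12 (0.35, 0.235) and KLHL28 (0.28, 0.276) did not pass, and UTP15, SART3 and TRIB1 did. EID2 (0.03), ADGRV1 (−0.06) and TMEM19 (−0.23) did not pass.

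Windows of ARRDC3 and THAP2 also overlapped windows on the opposite strand, of ARRDC3-AS1 and ZFC3H1, which had no gene value here. An overlap of this kind was present for 5 of the 9 genes searched and for 22.5% of the tested genes with a window. Whether the probe sets tell strands apart is not given in the sources used here, so signal of C6orf52 and PAK1IP1, and of ARRDC3 and its antisense gene, cannot be told apart where they overlap.

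**Figure D5:**
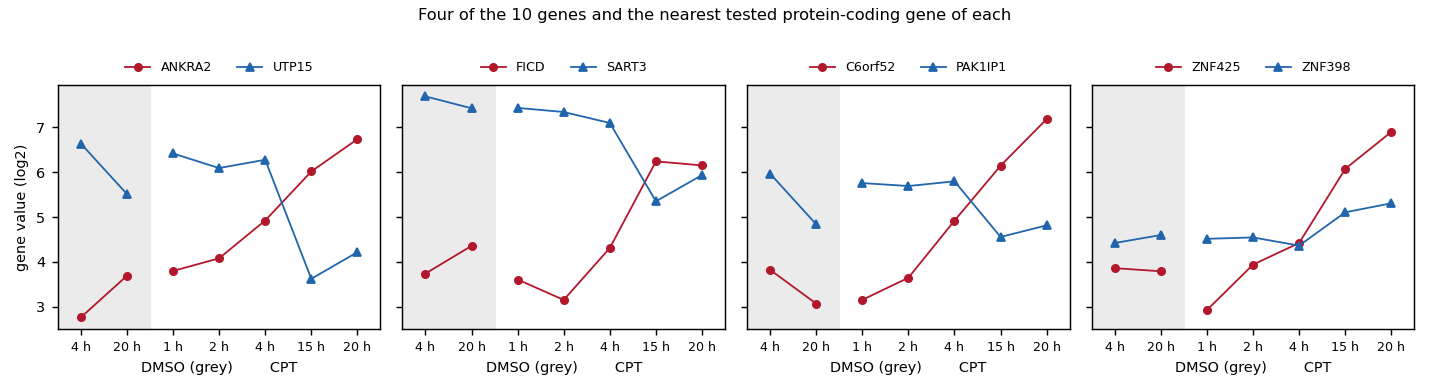
Gene value on the log2 scale of ANKRA2, FICD, C6orf52 and ZNF425 (red circles) and of the nearest tested protein-coding gene of each (blue triangles) on the 7 arrays, with DMSO on grey. UTP15 and SART3 lie below their DMSO values at 15 and 20 h, where ANKRA2 and FICD lie above theirs, while ZNF398 rises by 0.70 beside ZNF425.

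Among relatives and partners of the 10 genes, 0 members of the 9 lists below passed in CPT early with limma in either direction, while 1147 of all genes had an unadjusted p under 0.05 there. The lists are given by their counts in CPT late, beside an all-gene median of 0.34. Over all genes 33.4% were higher and 18.0% lower, or 12.9% and 21.2% with centred arrays. Of the genes named below, EID1, THAP10, ZNF746, ZNF398, SGK2, ARRDC1, PLAAT5 and PLAAT2 did not pass with centred arrays. In the EID family 1 of 2 tested members was higher, EID1 (0.96, adjusted p = 0.0139), and EID2 read 0.03, and 0 were higher with centred arrays. Of 11 other THAP genes 6 were higher and 1 lower, with a median of 0.64, and 1 and 2 with centred arrays. THAP9 rose by 1.62 and THAP10 by 1.00, and THAP12 fell by 1.31. Of 6 zinc finger genes of the ZNF425 cluster 3 were higher and 0 lower, ZNF746 (0.90), ZNF786 (0.78) and ZNF398 (0.70), with a median of 0.53, and 1 and 0 with centred arrays.

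Among SGK and AKT kinases with their activator and substrates, 1 of 7 was higher and 2 lower (median −0.06), or 0 and 2 with centred arrays. SGK2 rose by 0.56, SGK3 fell by 0.82, and NEDD4L, the ligase that SGK1 phosphorylates, fell by 1.72 to 3.43 and 3.44 in CPT late, against 5.51 and 4.80 in DMSO. Of 6 glucocorticoid-induced genes 3 were higher and 1 lower (median 0.45), or 2 and 2 with centred arrays. TSC22D3 rose by 1.48 and PER1 by 1.01, whereas FKBP5, a co-chaperone of the glucocorticoid receptor, fell by 1.23. Of 4 other alpha-arrestins 3 were higher and 0 lower (median 0.65), or 2 and 0 with centred arrays: ARRDC4 (1.55), ARRDC2 (0.74) and ARRDC1 (0.55).

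Of 8 genes of the RFX complex and of ANKRA2 partners 4 were higher and 1 lower (median 0.35), or 2 and 1 with centred arrays. CUL7 rose by 0.91 and the histone deacetylase gene HDAC5 by 0.72, and RFX5 fell by 1.11. Of 7 LRAT domain relatives 2 were higher and 0 lower (median 0.49), or 0 and 0 with centred arrays: PLAAT5 (0.69) and PLAAT2 (0.66). Among 13 genes of the unfolded protein response, the stress response of the ER in which FICD works, 4 were higher and 1 lower (median 0.36), or 3 and 1 with centred arrays. The list held 15 genes, and HSPA5, the gene of BiP, was among those with no gene value here. CRELD2 rose by 1.18, HYOU1 by 0.94, and DNAJC3, an ER co-chaperone, fell by 1.82 to 4.20 and 3.87 in CPT late, against 6.07 and 5.63 in DMSO.

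The profiles of the 10 genes had a median of −0.08, 0.16, 1.05, 2.58 and 3.52 relative to the DMSO mean at 1, 2, 4, 15 and 20 h of CPT. The genes closest to it by Euclidean distance over the 5 CPT arrays were GADD45A (0.56), CLP1 (0.65), ATF3 (0.70), SFT2D3 (0.91) and RSRP1 (0.93). C6orf52 was the closest of the 10 genes themselves, at 0.54, and EID2B the farthest, at 3.43. GADD45A, a growth arrest gene, stood at −0.16, 0.25, 0.68, 2.96 and 3.38 on these arrays, and ATF3, a stress transcription factor gene, at −0.21, 0.68, 1.23, 2.77 and 3.15. Nearness here describes 5 arrays that share their DMSO mean.

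Of the 10 genes 9 were shorter than the median tested gene, as were 49.5% of all genes and 84.6% of the 970 genes more than 1 higher in CPT late. EID2B stood at the 2.08 percentile of length and C6orf52 and ZNF425 at 44.0 and 44.1. SGK1, at the 88.4 percentile, was the exception. The length is a single one per gene from the RefSeq gene table. SGK1 has several gene starts there, and which start was in use was not tested.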

How the data were processed

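The 7 arrays carry log2 values per probe set, normalized between arrays and deposited by the authors. Per the submitters' processing notes the tools were RMA, Partek 6.08 and R 2.11.1, whose roles are unstated. How background was corrected and which genome build was used is not given in the sources used here. The log2 scale was read from the values. The members and the gene lists were chosen with earlier results of these data known.

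Probe sets were joined to genes by the identifier that opens their name, through the platform annotation and the RefSeq gene table of GRCh38.p14. A gene value was the median of the kept probe sets (mean above 2.95), for genes with at least 3. limma 3.58.1 in R 4.3.3 (lmFit, eBayes with an intensity trend) was fitted to all 7 arrays and 16148 genes, with Benjamini-Hochberg adjustment and a threshold of 0.05. The slope was fitted on log2 hours within CPT early. The steps were tested on simulated data. Labels do not say whether arrays come from separate cultures, so p-values measure the spread between arrays of different times, which may be technical. The number of arrays limits the precision.

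Named were the 10 genes, at most 3 members of each list with the largest difference in CPT late, the 5 nearest profiles, CDKN1A and TOP1. Alternatives were the mean, other cuts on dim probe sets, quantile re-normalization, centring, B, F and T probe sets alone, robust eBayes or eBayes with no trend, leaving out single arrays, and other thresholds of first rise (0.5 and 1.5) or the DMSO mean as baseline. Promoter sequences are from RefSeq. Python 3.11.15, pandas 2.3.3 and matplotlib 3.10.9 were used for tables and figures.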

Additional observations from a re-analysis of the deposited data

Results flagged for a closer look

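LRATD2 is listed because its 3 CPT early arrays all lay below the DMSO mean of 5.03 and both CPT late arrays above it. The early arrays, 4.80, 4.89 and 4.90, lay between the DMSO arrays, 4.67 and 5.39, and CPT early did not pass (−0.17, SE 0.29, limma adjusted p = 0.962). CPT late stood 2.85 above CPT early on the log2 scale, and this difference was not tested.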

How the results depend on the processing

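Genes higher in CPT early numbered 4, but 0 with no cut on dim probe sets, with a stricter cut or with centred arrays, and 2 with B, F and T probe sets alone or without the eBayes trend. They numbered 0 to 10 when single arrays were left out. Lower genes numbered 11, but 23 with the mean of probe sets, 1 with no cut, 7 with B, F and T probe sets, and 5 to 22 with arrays left out. The slope called 0 genes, but 3 higher and 1 lower with the mean of probe sets. Of the 10 genes, 5 had risen by 4 h, but 2 with no cut, 2 with probe sets kept by the DMSO arrays alone, where THAP2 could not be tested, 3 with a stricter cut, which leaves EID2B, THAP2 and FICD untestable with fewer than 3 probe sets, 3 with a threshold of 1.5, and 2 to 5 with arrays left out, where 2 followed from leaving out the 4 h CPT array. All 10 lay more than 1 above DMSO in CPT late, but 5 with no cut. Genes named above as untestable in a setting could not be counted there. The share of probe sets more than 1 higher was 87.0%, but 54.4% with no cut, 91.0% with a stricter cut, 81.6% with probe sets kept by the DMSO arrays, and 79.6% to 88.1% with arrays left out. Over all genes in CPT late, 5399 were higher and 2908 lower, but 2081 and 3420 with centred arrays, 1994 and 2080 when the DMSO array of 4 h was left out, 2871 and 2444 when the CPT array of 15 h was, and 2732 and 2225 when that of 20 h was. Where no gene was lost from the test, the cause was not tested.

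Differences in CPT early changed sign in some settings. With no cut EID2B read −0.39, DORIP1 −0.10 and FICD 0.15. With the mean of probe sets LRATD2 read 0.15 and ZNF425 0.11. ZNF425 read 0.42 with a stricter cut and with B, F and T probe sets, ARRDC3 0.073 with a stricter cut, and FICD 0.37 with probe sets kept by the late arrays. With arrays left out the range was −0.046 to 0.84 for C6orf52, −0.19 to 0.35 for DORIP1, −0.53 to 0.20 for LRATD2, −0.39 to 0.35 for ZNF425 and −0.54 to 0.062 for ARRDC3. Slopes changed sign for LRATD2 with no cut (−0.054) and DORIP1 with probe sets kept by the DMSO arrays (−0.15). With arrays left out slopes ranged from −0.035 to 1.56 for THAP2, −0.27 to 0.55 for DORIP1, −0.45 to 1.16 for FICD and −0.090 to 1.21 for ARRDC3. No paired analysis was possible because the labels give no replicate numbers and each CPT group shares only 1 time with DMSO.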
